A study of Mus musculus with 6 samples.

Results

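The genes of core autophagy, the process by which a cell wraps part of its own cytoplasm in a membrane and delivers it to lysosomes, were read from RNA sequencing of immortalized mouse cardiosphere-derived cells. The members are 46 genes chosen by name from the known pathway, with no cut on measured values but with earlier results of these data known, out of 54532 genes in the deposited table, and each of the 46 symbols matched 1 row. They were ordered by step: initiation (18 genes), conjugation (16), cargo receptors (8) and fusion with lysosomes (4).

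The cells are a line grown from heart ventricle of young adult C57BL/6 mice, from the epicardium according to the methods of the study, and both groups carry a telomerase transgene, hTERT under a CMV promoter, delivered by lentivirus. Puromycin selected the carriers, and the line is not described as a single clone. The 3 control libraries are iCDCs at passage 30, and the 3 induced libraries are iCDCs of the same passage given 5-azacytidine, an inhibitor of DNA methylation, at 10 µM for 3 days and then kept for 4 weeks in IMDM with 2% FBS. The methods give a different basal medium and a shorter later culture for induction, and describe passaging of the line in IMDM with more serum, while the time in culture of the sequenced control cells is not stated, so drug, serum, medium and time cannot be told apart.

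Autophagy begins when the ULK kinase complex is released from inhibition by mTORC1, the kinase complex that reports on amino acids and growth factors, and when AMPK reports low energy. A lipid kinase complex built on beclin 1 then marks the forming membrane, lipid carriers feed it, and a pair of ubiquitin-like conjugation reactions attach small ATG8 proteins (the LC3 and GABARAP families) to it. Cargo receptors bind both the cargo and the ATG8 proteins, and SNARE proteins fuse the closed vesicle with a lysosome. In heart cells the pathway is known for the turnover of mitochondria and of aged protein. Levels of transcripts say nothing on their own about flux through the pathway, which was not measured here.

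Total counts lay between 19041133 and 19823369 reads per library, and each of the 46 genes had at least 98 reads in every library. The p-values measure the spread between libraries that the labels call separate samples. The methods speak of biological replicates, for a different number per condition, and do not say whether these were separate cultures, so the spread may be technical. Mesenchymal markers of cardiosphere-derived cells were present, 3 of 6 higher and 3 lower (summed FPKM 1595 to 1683 in control and 1577 to 1671 in induced libraries; FPKM is reads scaled to gene length and library depth). The 4 epicardial markers summed to 92.6 to 95.4 FPKM and 284 to 320.4 FPKM, most of it Upk3b (71.3 ± 0.241 to 266 ± 18.2 FPKM), while Tbx18 was lower (13.4 ± 1.02 to 10.7 ± 0.969 FPKM, adjusted p 0.000429 by edgeR). Only 3 of 8 cardiomyocyte markers reached the minimum depth, their list summing to 2.20 to 2.57 FPKM in control and 10.1 to 11.5 FPKM in induced libraries, and Myh6 and Myh7, the heavy chains of cardiac myosin, were at or near 0. Of the 3, 2 were higher: Tnnt2 (1.68 ± 0.211 to 7.49 ± 0.258 FPKM) and Myl7 (0 to 2.20 ± 0.742 FPKM, from 0 reads in control libraries to 20 to 34 in induced libraries). Tnni3 was not called. Of 10 leukocyte markers, Ptprc, Adgre1, Tyrobp, Itgam and Cd3e had 0 reads in all 6 libraries, while the summed level was 35.7 to 40.4 FPKM in control and 58.5 to 66.0 FPKM in induced libraries. Of that rise, Cd68, a lysosomal membrane protein, held the largest part (1.54 ± 0.173 to 23.2 ± 2.23 FPKM). The list moved in both directions: of the 4 tested, Cd68 and Lyz2 (2.83 ± 0.481 to 11.1 ± 0.950 FPKM) were higher. Csf1r was lower (4.58 ± 0.222 to 2.22 ± 0.141 FPKM), and Cd14 was not called. No endothelial marker of 6 was tested (summed FPKM 0.0406 to 0.0827 and 0.124 to 0.176). The 6 proliferation markers were all lower in induced cells, their sum moving from 136.8 to 141.4 FPKM in control libraries to 57.3 to 59.3 FPKM in induced libraries. The part that growth state and cell makeup have in the results was not tested, and in bulk RNA fewer cells of a type and less RNA per cell cannot be told apart.

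All 46 autophagy genes had enough reads for the test, and in induced cells 30 of them were called higher, 4 lower and 12 neither way. The called share was 73.9%, against 64.8% of the 14246 genes tested (edgeR quasi-likelihood test, adjusted p under 0.05). By direction the shares were 65.2% higher against 32.6% of all tested genes, and 8.7% lower against 32.2%. The median log2 fold change (induced against control, so that 1 is a doubling) was 0.27 for the members and -0.01 for all tested genes. Since called genes need reads, the same shares were taken over the 10406 tested genes with a mean count of at least 118.5, the lowest mean among the members; of these, 70.9% were called, 35.7% higher and 35.2% lower. FPKM of the 2 groups stayed apart for 34 of the 46 genes (73.9%), against 68.5% of tested genes. The estimate was above 0 for 36 of the 46 (78.3%), against 49.5% of tested genes.

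The changes were of modest size. At least 1.5-fold and past the threshold were 8 of the 46 genes (17.4%), against 30.9% of all tested genes and 26% of those with a mean count of at least 118.5. Of the 8, 7 were higher: Gabarapl1, Snap29, Optn, Bnip3, Gabarapl2, Ulk1 and Atg4a. That is 15.2% of the members, against 15.9% of tested genes. Only Vmp1 was at least 1.5-fold lower, 2.17% of the members against 15% of tested genes. Sqstm1 and Uvrag lay just short of that size, with folds of 1.49 and 1.49, and Atg4a and Vmp1 just past it, with folds of 1.52 and 0.658. Reads of the 46 genes together made up 0.416% to 0.418% of a control library and 0.503% to 0.510% of an induced library.

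**Figure D1:**
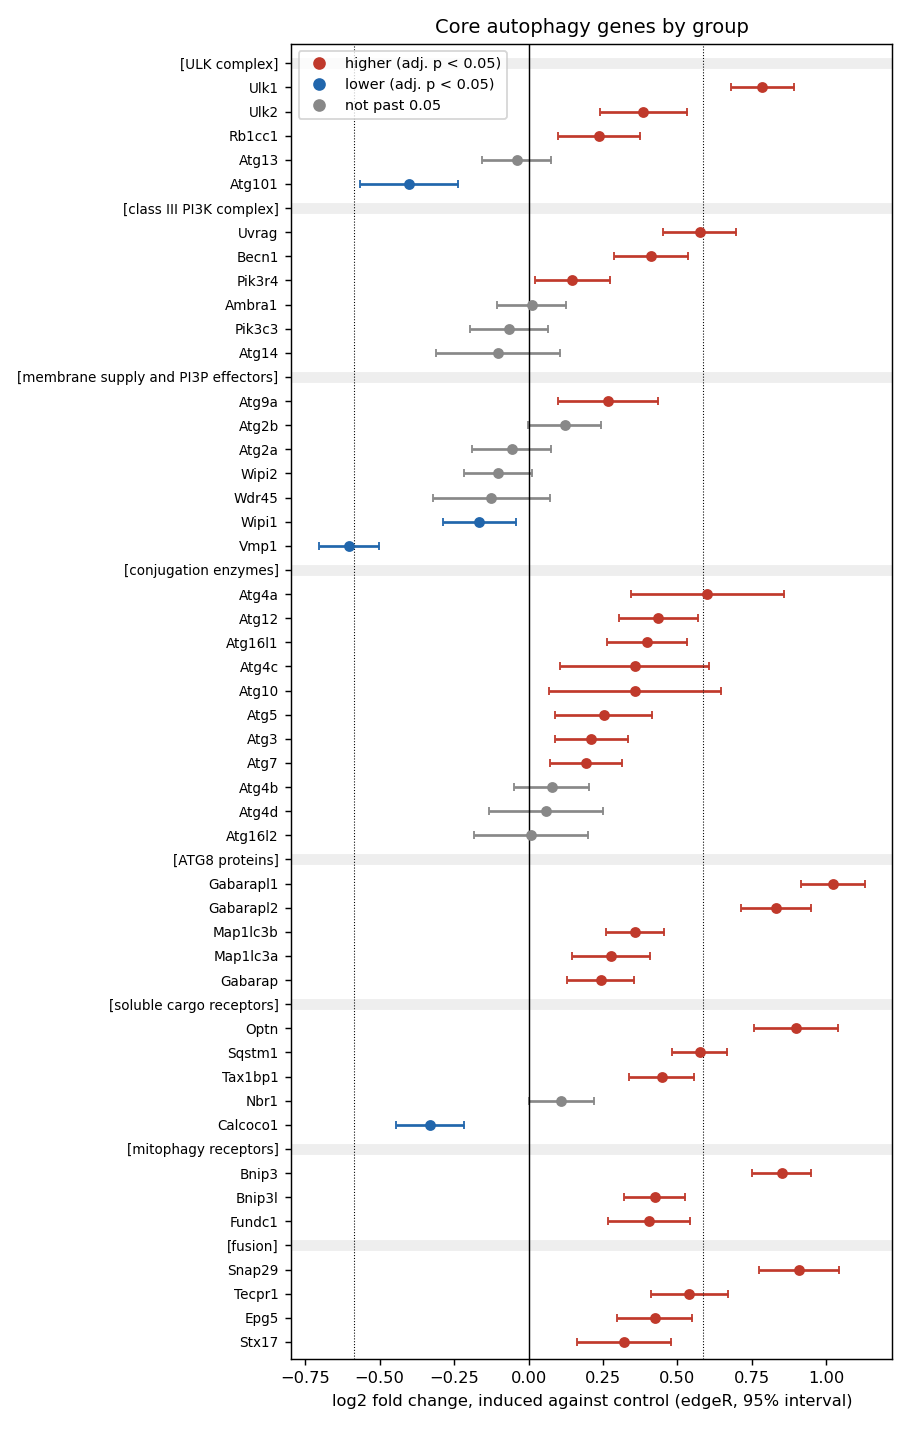
Log2 fold change of each of the 46 autophagy genes, induced against control (x axis, points with 95% intervals from edgeR, 3 libraries a group), ordered by step on the y axis; dotted lines mark 1.5-fold. The 30 genes called higher run from Pik3r4 at 0.15 to Gabarapl1 at 1.02, and the 4 called lower are Vmp1, Atg101, Calcoco1 and Wipi1.

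By step, the shares are set against 32.6% higher and 32.2% lower among all tested genes. In initiation 7 of 18 genes were higher (38.9%) and 3 lower (16.7%), with a median log2 fold change of -0.01; its called share, 55.6%, was below the 64.8% of all tested genes. In conjugation 13 of 16 were higher (81.2%) and 0 lower by edgeR, with a median of 0.32; the lowest estimate of the 16 was that of Atg16l2, 0.01, so no conjugation gene had an unadjusted p under 0.05 on the lower side, and DESeq2 gave the same count of 0. Among receptors 6 of 8 were higher (75%) and 1 lower (12.5%; median 0.44), and all 4 fusion genes were higher (median 0.48). The steps were compared by these counts and medians, with no test of the difference between them.

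Sequences upstream of 4 members are shown: those of the largest rise and fall, and those of Atg3 and Bnip3, which hold E-boxes. An E-box, CACGTG, is the core of the site bound by TFEB and its relatives, which are known activators of lysosome and autophagy genes. Binding of these or of any other factors was not measured, and the letters alone do not tell which factor binds. RefSeq windows on GRCm38.p6 from 250 bases before to 50 bases after a gene's start were given for 38 of the 46 genes, 44 windows in all. CACGTG, which reads the same on both strands, was in 5 of the 44 (11.4%), against 7.15% of all 32851 windows and 9.8% of the 13220 windows of tested genes. Its 5 genes were Atg3, Atg5, Atg7, Bnip3 and Atg14, of which the first 4 were called higher and Atg14 was not called. Of all 38 genes with a window, 23 were called higher, 4 lower and 11 not called. Whether the E-box goes with the direction of change was not tested. The windows of Atg7 and Atg14 surround RefSeq starts inside the gene of the deposited annotation. That of Atg7 begins at 114670846, in a plus-strand gene starting at 114643097. That of Atg14 ends at 47568684, in a minus-strand gene reaching 47570649. Their E-boxes are therefore not upstream of the whole gene, and some other windows also lie inside genes. The E-box of Atg5 begins at position -14, before the start of the gene in both annotations, and its sequence is not shown. With T before and A after it, the E-box was in 1 window, that of Atg3 (2.27%, against 0.974% of all windows and 1.78% of those of tested genes). The forkhead motif TGTTTAC, searched on both strands, was in 0 of the 44, in 3.65% of all windows and in 2.52% of those of tested genes; no match says only that these letters are not in these windows. CpG dinucleotides, the places where DNA methylation occurs, had a median of 20 per 300-base window for the members and 20 for tested genes. It was 19.5 in the 26 windows of 23 genes called higher, 23.5 in the 6 windows of 4 genes called lower and 19.5 in the 12 windows of 11 genes not called. Windows of 1 gene, Vmp1, with 1, 22 and 28 CpG, are among the 6. DNA methylation was not measured. Each stretch below ends before the start of the gene in both annotations and runs 5′ to 3′ on the strand of the gene.
Atg3, chr16:45158579-45158784 (plus strand, capitals mark the pair of E-boxes, which begin at positions -94 and -71 from the RefSeq start, the second being the one with T before and A after it): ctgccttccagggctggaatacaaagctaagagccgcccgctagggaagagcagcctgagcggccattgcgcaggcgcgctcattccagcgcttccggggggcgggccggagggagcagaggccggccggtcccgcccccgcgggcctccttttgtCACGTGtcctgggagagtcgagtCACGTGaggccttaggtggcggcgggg
Bnip3, chr7:138909520-138909756 (minus strand, capitals mark the E-box, beginning at position -108): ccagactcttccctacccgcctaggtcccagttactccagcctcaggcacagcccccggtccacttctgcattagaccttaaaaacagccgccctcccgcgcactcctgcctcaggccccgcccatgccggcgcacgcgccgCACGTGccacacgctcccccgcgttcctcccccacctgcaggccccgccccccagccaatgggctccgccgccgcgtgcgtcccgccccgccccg
Gabarapl1, chr6:129532942-129533159 (plus strand, the largest rise; capitals mark its 9 CpG): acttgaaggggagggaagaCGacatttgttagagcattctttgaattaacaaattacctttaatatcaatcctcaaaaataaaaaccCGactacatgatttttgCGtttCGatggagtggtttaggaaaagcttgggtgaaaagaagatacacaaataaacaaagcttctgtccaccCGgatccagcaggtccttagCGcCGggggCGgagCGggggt
Vmp1, chr11:86683837-86684086 (minus strand, the largest fall; capitals mark its 23 CpG, before the outermost of 3 starts): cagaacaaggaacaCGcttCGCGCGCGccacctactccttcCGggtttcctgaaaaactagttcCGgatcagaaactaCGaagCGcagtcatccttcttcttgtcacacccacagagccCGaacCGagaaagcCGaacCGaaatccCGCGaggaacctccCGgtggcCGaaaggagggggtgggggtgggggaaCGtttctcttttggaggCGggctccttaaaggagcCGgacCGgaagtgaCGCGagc

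Within the ULK complex 3 of 5 genes were higher (60%, against 32.6% of all tested genes) and 1 lower (20%, against 32.2%). Both kinases were among the 3. Ulk1 (ENSMUSG00000029512, chromosome 5, 110784488 to 110810097, minus strand), the kinase that starts autophagy, had 11.97, 11.5 and 11.6 FPKM in control cells and 20.5, 20.7 and 19.8 FPKM in induced cells. The groups were far apart, and the fitted fold was 1.72 (log2 fold change 0.79 with SE 0.05, adjusted p 1.52e-10 by edgeR). Its paralog Ulk2 rose from 10.2 ± 0.288 to 13.5 ± 1.56 FPKM (mean ± SD, n = 3, as for every such pair of levels here; log2 fold change 0.39 with SE 0.07, adjusted p 9.09e-05 by edgeR). Rb1cc1 (FIP200), the large scaffold of the complex, rose (log2 fold change 0.24, adjusted p 0.00433 by edgeR). Atg101, which stabilizes Atg13, was lower, from 22.6 ± 0.262 to 17.3 ± 2.07 FPKM (log2 fold change -0.40 with SE 0.08, adjusted p 0.000186 by edgeR). Atg13 itself had 20.5 ± 0.530 FPKM in control and 20.1 ± 1.04 FPKM in induced cells, with an interval of -0.16 to 0.08 for its log2 fold change (edgeR adjusted p 0.545).

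The ratio of Ulk1 to Ulk2 was compared per length in each library. Its log2 value was 0.19 ± 0.01 in control and 0.60 ± 0.15 in induced libraries, and the groups did not overlap. With 3 libraries against 3, an exact permutation test cannot give a two-sided p under 0.1, which is the value here (0.183 after Benjamini-Hochberg adjustment over 11 paralog pairs). Every induced library had a higher ratio than every control library.

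In the class III PI3K complex, which makes the lipid PI3P on the forming membrane, 3 of 6 genes were higher (50%) and 0 lower by edgeR. Among all tested genes 32.6% were higher and 32.2% lower. The called share of the complex, 50%, was below the 64.8% of all tested genes. On the lower side, 0 of the 6 had an unadjusted p under 0.05. Uvrag, the partner of beclin 1 in the endosomal form of the complex, rose from 5.51 ± 0.320 to 8.27 ± 0.379 FPKM (log2 fold change 0.57 with SE 0.06, adjusted p 9.12e-08 by edgeR). Becn1, the scaffold, rose from 5.11 ± 0.225 to 6.85 ± 0.273 FPKM (log2 fold change 0.41 with SE 0.06, adjusted p 7.31e-06 by edgeR). Antisense partners share 43.9% of the exon bases of Becn1 and 17.6% of those of Uvrag, with at most 5 and 8 reads in a library. The kinase Pik3c3 (VPS34) had 7.80 ± 0.167 FPKM in control and 7.51 ± 0.232 FPKM in induced cells, with an interval of -0.20 to 0.07 on the log2 scale. Atg14, the partner of beclin 1 in the autophagic form, had 3.50 ± 0.208 FPKM in control and 3.29 ± 0.365 FPKM in induced cells and an interval of -0.31 to 0.11. Neither Pik3c3 nor Atg14 passed the test (edgeR adjusted p 0.368 and 0.383), nor did the beclin 1 binding scaffold Ambra1, whose interval was -0.11 to 0.13. The regulatory subunit Pik3r4 (VPS15) rose (log2 fold change 0.15, adjusted p 0.0391 by edgeR), but its FPKM overlapped between groups. That call was lost under 9 of 15 alternatives, among them DESeq2 (adjusted p 0.0841) and leaving out control replicate 1 (0.136), control replicate 2 (0.142) or induced replicate 1 (0.131), in the range 0.00937 to 0.142 over its alternatives.

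Membrane supply held the largest fall of the 46 genes. Vmp1 (ENSMUSG00000018171, chromosome 11, 86583865 to 86683836, minus strand), an endoplasmic reticulum protein that moves lipid between membrane leaflets, had 69.1, 69.01 and 65.6 FPKM in control cells and 43.5, 45.1 and 46.5 FPKM in induced cells. Every induced library lay below every control library (log2 fold change -0.60 with SE 0.05, adjusted p 2.80e-09 by edgeR), and Vmp1 nevertheless had the highest level per length of the 18 initiation genes in both groups. Of the PI3P binding proteins, Wipi1 was lower by a small margin, -0.16 on the log2 scale (edgeR adjusted p 0.0184). Without control replicate 1, which had the highest value (23.2 FPKM), its adjusted p was 0.172, and without induced replicate 3 it was 0.064 (range over its alternatives 0.00606 to 0.172). Wipi2 and Wdr45 did not pass the test, with intervals of -0.22 to 0.01 and -0.32 to 0.07 (24.7% of the exon bases of Wdr45 lie in Gm45208, which had 0 reads). Wipi2, which recruits Atg16l1, passed it with library totals alone as the scaling (log2 fold change -0.14, edgeR adjusted p 0.0256).

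Of the lipid transfer proteins, Atg2a and Atg2b had 7.97 and 4.33 FPKM in control cells and did not pass the test (intervals -0.19 to 0.08 and -0.00082 to 0.24). Atg2b passed it without control replicate 1 (adjusted p 0.0361) or induced replicate 3 (0.0376), in a range of 0.0361 to 0.241 over its alternatives. Atg9a, the scramblase carried on seed vesicles, rose from 4.99 ± 0.349 to 6.06 ± 0.627 FPKM (log2 fold change 0.27 with SE 0.08, adjusted p 0.00716 by edgeR). Its adjusted p was 0.0546 without control replicate 2 and 0.0513 without induced replicate 1 (range over its alternatives 0.000824 to 0.0546). Of its exon bases, 32.6% also belong to exons of Gm29253 or of Ankzf1 on the other strand, and those genes together had 352 to 397 reads per library, so its count is uncertain.

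Of the conjugation enzymes, which join ATG12 to ATG5 and ATG8 proteins to lipid, 8 of 11 were higher (72.7%) and 0 were lower. Among all tested genes 32.6% were higher and 32.2% lower. The called share, 72.7%, was near the 70.9% of tested genes with a mean count of at least 118.5. The ATG12 to ATG5 arm rose together: Atg12 from 13.2 ± 0.319 to 18.04 ± 1.11 FPKM (log2 fold change 0.44 with SE 0.06, adjusted p 7.78e-06 by edgeR), Atg5 by 0.25 and Atg16l1 by 0.40 on the log2 scale (adjusted p 0.00836 and 2.46e-05 by edgeR). Atg7, the enzyme that activates both kinds of ubiquitin-like protein, rose from 6.65 ± 0.402 to 7.66 ± 0.122 FPKM (log2 fold change 0.19 with SE 0.06, adjusted p 0.00682 by edgeR). Atg3, which passes ATG8 proteins to lipid and whose pair of E-boxes is shown above, rose from 15.5 ± 1.161 to 18.1 ± 0.233 FPKM (log2 fold change 0.21 with SE 0.06, adjusted p 0.00432 by edgeR). Atg10, which passes ATG12 to ATG5, rose (log2 fold change 0.36, adjusted p 0.0297 by edgeR), and it had the fewest reads of the 46 genes, 98 to 137 per library.

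Some of these calls lay near the threshold. Without control replicate 3, the log2 fold changes were 0.20 for Atg5, 0.15 for Atg7 and 0.28 for Atg4c, with adjusted p of 0.0574, 0.0595 and 0.0684, against ranges over the alternatives of 0.00588 to 0.0574, 0.0046 to 0.0595 and 0.00305 to 0.0684. That of Atg10 was 0.107 by DESeq2 and 0.0952, 0.0872, 0.0664 and 0.0531 without control replicate 1, control replicate 2, induced replicate 2 and induced replicate 3 (range 0.00827 to 0.107). Atg16l1 lost its call under none of the 15 alternatives. Its paralog Atg16l2 did not pass the test, with 1.94 ± 0.176 FPKM in control and 1.96 ± 0.0771 FPKM in induced cells and an interval of -0.18 to 0.20. The log2 ratio of Atg16l1 to Atg16l2 was 0.69 ± 0.08 in control and 1.07 ± 0.07 in induced libraries, without overlap (exact permutation test, two-sided, p 0.1, the smallest possible).

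The 4 ATG4 proteases, which trim ATG8 proteins before conjugation and release them from lipid afterwards, did not move alike. Atg4a (ENSMUSG00000079418, chromosome X, 140956907 to 141164270, plus strand) had 2.68, 3.43 and 2.75 FPKM in control cells and 4.35, 4.24 and 4.94 FPKM in induced cells. The groups were apart, and the fold was 1.52 (log2 fold change 0.60 with SE 0.12, adjusted p 0.000294 by edgeR), at a depth of 142 to 251 reads per library. Atg4c rose (log2 fold change 0.36, adjusted p 0.0138 by edgeR). Atg4b, the form with the highest level per length, had 6.32 ± 0.125 FPKM in control and 6.73 ± 0.507 FPKM in induced cells and did not pass the test (interval -0.05 to 0.20), although it did without induced replicate 2 (log2 fold change 0.14, adjusted p 0.0209; range over its alternatives 0.0209 to 0.569). Atg4d, whose exons overlap those of Kri1 over 19.3% of their length, did not pass it either (interval -0.13 to 0.25). Kri1 had 214 to 261 reads per library, against 301 to 350 for Atg4d, so the count of Atg4d and its ratio to Atg4b are uncertain. The log2 ratio of Atg4a to Atg4b was -1.11 ± 0.17 in control and -0.58 ± 0.08 in induced libraries, without overlap, while those of Atg4c and Atg4d to Atg4b overlapped between groups (exact permutation p 0.1, 0.3 and 0.9).

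All 5 ATG8 genes were higher in induced cells (100%, against 32.6% of all tested genes), by different amounts. Gabarapl1 (ENSMUSG00000030161, chromosome 6, 129533160 to 129542346, plus strand), a GABARAP family member, had 89.5, 80.6 and 86.1 FPKM in control cells and 181, 167 and 177 FPKM in induced cells. This was the largest rise of the 46 genes, a fold of 2.03 with an interval of 1.89 to 2.19 (log2 fold change 1.02 with SE 0.05, adjusted p 3.55e-12 by edgeR). Of its exon bases 28.3% overlap the antisense gene 1700101I11Rik, which had 3 to 10 reads per library. Gabarapl2 (GATE-16; ENSMUSG00000031950, chromosome 8, 111940703 to 111953612, plus strand) had 15.9, 16.6 and 15.97 FPKM in control cells and 30.1, 29.4 and 27.6 FPKM in induced cells. Here too the groups were far apart (log2 fold change 0.83 with SE 0.06, adjusted p 2.60e-10 by edgeR).

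The remaining 3 rose less. Gabarap, the most abundant of the 5 and the highest of the 16 conjugation genes, had 277, 275 and 279 FPKM in control cells and 336, 299 and 355 FPKM in induced cells. Its induced libraries spread more than its control libraries, yet did not reach down to them (log2 fold change 0.24 with SE 0.05, adjusted p 0.000606 by edgeR). Map1lc3a (LC3A) had 99.1, 107 and 111 FPKM in control cells and 138, 116 and 132 FPKM in induced cells. Map1lc3b (LC3B), the form most often used as a marker of autophagosomes, had 43.1, 41.1 and 43.7 FPKM in control cells and 56.7, 52.6 and 55.8 FPKM in induced cells. Both rose without overlap, by 0.28 (edgeR adjusted p 0.000762) and 0.36 (edgeR adjusted p 1.92e-06) on the log2 scale. Map1lc3b has 4 annotated near-identical copies in other loci, to which 551 to 770 reads per library were counted, against 6127 to 8026 for the gene, so its count is uncertain.

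**Figure D2:**
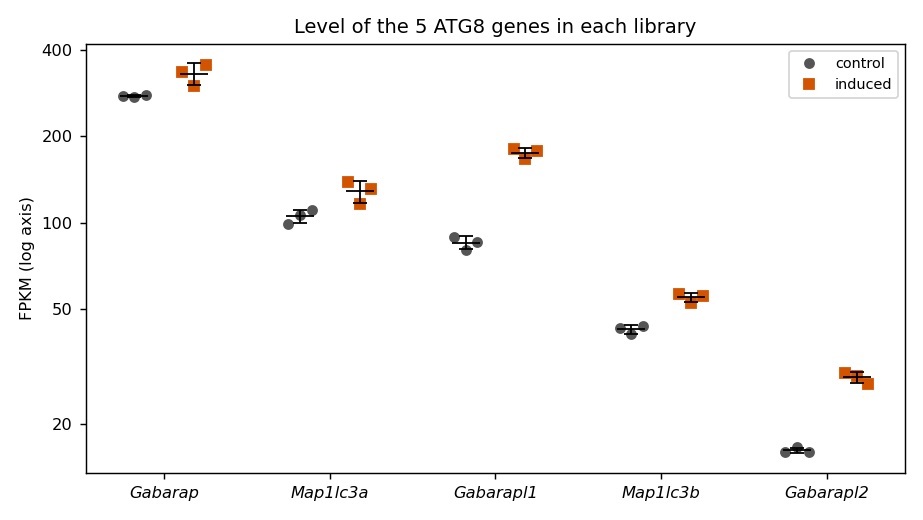
FPKM (log axis) of the 5 ATG8 genes in each of the 3 control and 3 induced libraries (points), with the mean and SD of each group (bars). The induced libraries lie above the control libraries for each gene, and Gabarapl1 passes from below Map1lc3a (85.4 against 105 FPKM) to above it (175 against 129 FPKM), an order per length that read counts do not share.

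The makeup of the ATG8 transcripts shifted with these differences. Their summed level was 524, 519.7 and 535 FPKM in control libraries and 741, 664 and 747 FPKM in induced libraries, a ratio of means of 1.36. The share of Gabarapl1 in that sum went from 16.2 ± 0.789% to 24.4 ± 0.702% (SD, n = 3) and the share of Gabarapl2 from 3.07 ± 0.110% to 4.06 ± 0.366%. Gabarap went from 52.6 ± 0.416% to 45.9 ± 1.35% and Map1lc3a from 20.03 ± 0.972% to 17.9 ± 0.626%, both without overlap between groups. For these 4 shares the exact permutation test gave a two-sided p of 0.1, the smallest that 3 libraries against 3 allow (0.125 after adjustment over 5 shares). The share of Map1lc3b overlapped between groups (8.09 ± 0.171% to 7.68 ± 0.229%, p 0.2). Per length, the order in control cells was Gabarap, Map1lc3a, Gabarapl1, Map1lc3b and Gabarapl2, and in each induced library Gabarapl1 stood above Map1lc3a. This order rests on the deposited gene lengths, 7517 bases for Map1lc3b and 1181 for Map1lc3a, which join all exons of a gene. In read counts both Map1lc3b and Gabarapl1 (3222 to 3588 reads in control libraries, against 2332 to 2625) stood above Map1lc3a in every library, so the crossing is seen per length only.

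**Figure D3:**
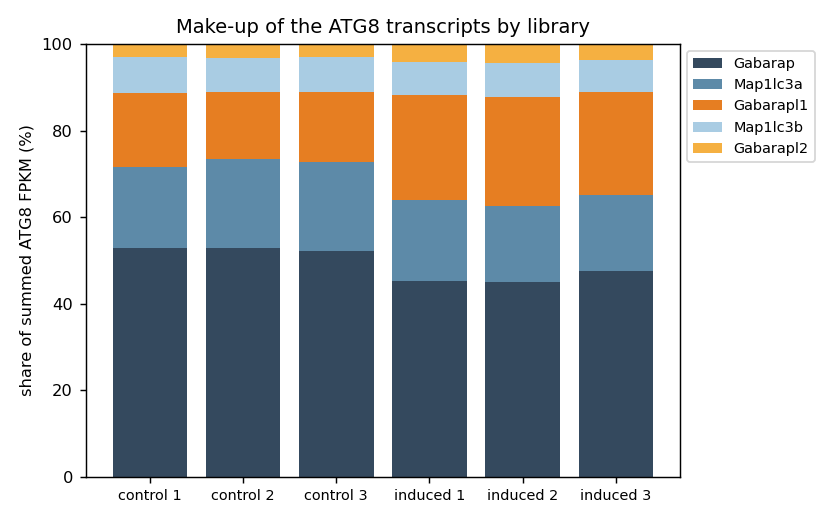
Share of each ATG8 gene in the summed FPKM of the 5 (stacked bars, percent) in each library. Gabarapl1 takes 15.5% to 17.1% of the control bars and 23.7% to 25.1% of the induced bars, while Gabarap takes 52.1% to 52.9% and 45.0% to 47.5%.

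The log2 ratio of Gabarapl1 to Gabarap was -1.70 ± 0.07 in control and -0.91 ± 0.08 in induced libraries, and that of Gabarapl2 to Gabarap -4.10 ± 0.04 in control and -3.50 ± 0.17 in induced libraries. Neither overlapped between groups (exact permutation p 0.1 for both). That of Map1lc3a to Map1lc3b overlapped, with 1.31 ± 0.09 in control and 1.22 ± 0.07 in induced libraries (p 0.3).

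Among the soluble cargo receptors, which carry ubiquitin-marked or membrane cargo to ATG8 proteins, Sqstm1 had the highest level per length and Optn the largest change. Sqstm1 (p62; ENSMUSG00000015837, chromosome 11, 50199366 to 50210827, minus strand) had 160.2, 161 and 166 FPKM in control cells and 252, 232 and 247 FPKM in induced cells. Every induced library lay above every control library, at a fold of 1.49 (log2 fold change 0.57 with SE 0.04, adjusted p 1.76e-09 by edgeR). Its exons overlap those of Mrnip on the other strand over 17.3% of their length, with 31 to 46 reads per library for Mrnip. Since p62 protein is itself degraded by autophagy, its transcript says nothing here about the amount of protein.

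Optn (optineurin; ENSMUSG00000026672, chromosome 2, 5020642 to 5064051, minus strand), a receptor for damaged mitochondria and bacteria, had 5.58, 5.41 and 5.84 FPKM in control cells and 10.5, 10.8 and 10.4 FPKM in induced cells. The spread within each group was small beside the gap (log2 fold change 0.90 with SE 0.07, adjusted p 1.09e-09 by edgeR). Tax1bp1 had 11.1, 11.1 and 11.8 FPKM in control cells and 14.97, 16.3 and 15.5 FPKM in induced cells, also apart (log2 fold change 0.45 with SE 0.05, adjusted p 4.94e-07 by edgeR).

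The other 2 receptors did not rise. Calcoco1, a receptor for endoplasmic reticulum and Golgi membrane, had 27.2, 26.1 and 27.6 FPKM in control cells and 22.5, 20.1 and 22.3 FPKM in induced cells. It was lower in all induced libraries (log2 fold change -0.33 with SE 0.05, adjusted p 2.95e-05 by edgeR). Nbr1, a relative of p62, had 20.5, 21.6 and 19.9 FPKM in control cells and 21.8, 23.4 and 22.2 FPKM in induced cells. Its groups did not overlap, by a narrow gap, and the test did not pass (interval 0.00043 to 0.22, edgeR adjusted p 0.073). It passed with median-ratio size factors (adjusted p 0.0496) and without induced replicate 1 (0.047), in a range of 0.047 to 0.259 over its alternatives.

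The 3 mitophagy receptors, proteins of the outer mitochondrial membrane that bind ATG8 proteins directly, were all higher (100%, against 32.6% of all tested genes). Bnip3 (ENSMUSG00000078566, chromosome 7, 138890836 to 138909519, minus strand), whose E-box is shown above and which low oxygen is known to induce, had 56.1, 53.9 and 56.8 FPKM in control cells and 101, 102 and 100.1 FPKM in induced cells. The induced libraries lay close together and far above the control libraries (log2 fold change 0.85 with SE 0.05, adjusted p 1.62e-11 by edgeR). Of its exon bases 22.3% overlap the antisense gene Gm45507, which had 0 reads in all 6 libraries. Annotated copies of Bnip3, Gabarapl2 and Atg4a took at most 13, 9 and 7 reads in a library. Its paralog Bnip3l (NIX) rose from 40.4 ± 1.24 to 54.6 ± 1.54 FPKM (log2 fold change 0.42 with SE 0.05, adjusted p 4.05e-07 by edgeR), and an annotated near-identical copy, Bnip3l-ps, took 237 to 336 reads per library against 3025 to 4136 for the gene. Fundc1, on the X chromosome, rose from 12.5 ± 0.622 to 16.7 ± 0.653 FPKM (log2 fold change 0.41 with SE 0.07, adjusted p 2.73e-05 by edgeR). The log2 ratio of Bnip3 to Bnip3l was 0.46 ± 0.08 in control and 0.89 ± 0.04 in induced libraries, without overlap (exact permutation test, two-sided, p 0.1).

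**Figure D4:**
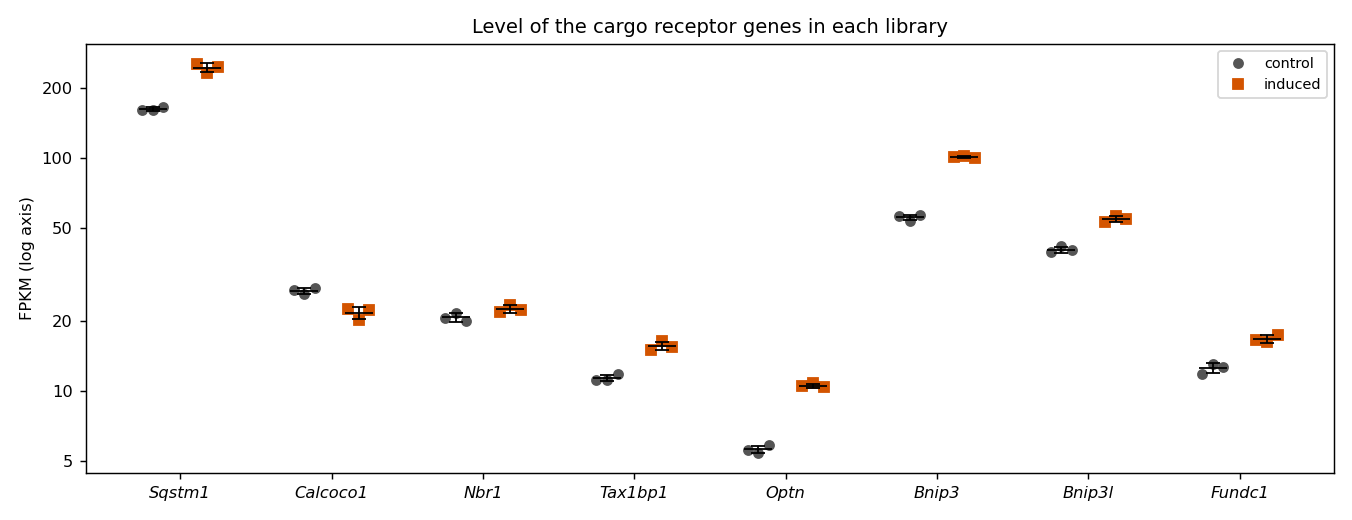
FPKM (log axis) of the 5 soluble cargo receptors and the 3 mitophagy receptors in each library (points), with the mean and SD of each group of 3 (bars). The groups do not overlap for any of the 8 genes, Calcoco1 being the one with lower induced libraries (26.96 against 21.6 FPKM) and Nbr1 the one that did not pass the test.

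All 4 fusion genes rose (100% called higher, against 32.6% of all tested genes). Snap29 (ENSMUSG00000022765, chromosome 16, 17405986 to 17430827, plus strand), a SNARE protein that bridges autophagosome and lysosome, had 9.41, 9.41 and 11.05 FPKM in control cells and 18.6, 18.9 and 19.1 FPKM in induced cells. It had the highest level per length of the 4 and the largest change, a fold of 1.88 (log2 fold change 0.91 with SE 0.06, adjusted p 4.45e-10 by edgeR), with no overlap. Stx17, the SNARE protein of the autophagosome that pairs with it, rose less, from 3.35 ± 0.0757 to 4.22 ± 0.204 FPKM (log2 fold change 0.32 with SE 0.08, adjusted p 0.00116 by edgeR). Tecpr1, which links autophagosomes to lysosomes, rose from 4.09 ± 0.205 to 5.99 ± 0.434 FPKM (log2 fold change 0.54 with SE 0.06, adjusted p 3.46e-07 by edgeR), and the tether Epg5 by 0.42 (edgeR adjusted p 6.02e-06).

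Genes around the core were read from 7 lists of regulators and partners, 95 genes of which 91 had enough reads. Of the 91, 52 were higher and 13 lower, so that 57.1% were higher against 32.6% of all tested genes, 14.3% lower against 32.2%, and 71.4% called against 64.8%, and their median log2 fold change was 0.22 against -0.01. In the list of mTORC1 and its inhibitors, 6 of 13 were higher (46.2%) and 4 lower (30.8%), with a median of 0.06. Sesn2, a leucine sensor that restrains mTORC1, rose from 10.4 ± 0.381 to 21.7 ± 0.956 FPKM (log2 fold change 1.05 with SE 0.06, adjusted p 1.20e-11 by edgeR), and Ddit4 (REDD1), a stress-induced inhibitor of mTORC1, from 66.1 ± 0.486 to 99.6 ± 4.91 FPKM (log2 fold change 0.58 with SE 0.05, adjusted p 9.90e-09 by edgeR). Deptor, another inhibitor, moved the other way, from 1.88 ± 0.180 to 0.711 ± 0.0964 FPKM (log2 fold change -1.41 with SE 0.12, adjusted p 7.32e-09 by edgeR), as did Sesn3 (log2 fold change -0.72). So the inhibitors of mTORC1 were not uniform in direction.

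The list of Rag GTPases and amino acid sensing joins genes that bring mTORC1 to lysosomes with genes that oppose this. Of 16 tested, 10 were higher (62.5%) and 2 lower (12.5%), with a median of 0.25. The 2 lower were Depdc5 and Nprl2, both on the opposing side (log2 fold changes -0.43 and -0.26, adjusted p 3.23e-05 and 0.0195 by edgeR). Rragd rose from 3.78 ± 0.246 to 8.21 ± 0.444 FPKM (log2 fold change 1.11 with SE 0.07, adjusted p 2.00e-10 by edgeR) and Rragc from 29.2 ± 1.78 to 42.9 ± 2.77 FPKM (log2 fold change 0.54 with SE 0.06, adjusted p 2.34e-07 by edgeR), both being the GTPases that folliculin acts on. Flcn (folliculin) itself rose by 0.59 and the Ragulator subunit Lamtor3 by 0.66 on the log2 scale. Rragb had too few reads to be tested.

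Of AMPK and its upstream kinase, 3 of 9 genes were higher (33.3%, against 32.6% of all tested genes) and 4 lower (44.4%, against 32.2%), with a median of -0.04. By DESeq2 2 were lower. Prkab2, a beta subunit, rose from 6.46 ± 0.222 to 20.9 ± 0.0588 FPKM (log2 fold change 1.68 with SE 0.05, adjusted p 6.51e-15 by edgeR), the largest rise in the 7 lists. Of the catalytic subunits, Prkaa2 rose from 0.813 ± 0.0126 to 2.31 ± 0.221 FPKM (log2 fold change 1.49 with SE 0.11, adjusted p 6.50e-10 by edgeR) while Prkaa1 fell from 14.7 ± 0.349 to 9.22 ± 0.563 FPKM (log2 fold change -0.68 with SE 0.06, adjusted p 6.19e-09 by edgeR). Cab39 (MO25), which activates the upstream kinase LKB1, rose by 0.51.

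Of the transcription factors of autophagy genes, 5 of 11 were higher (45.5%) and 0 lower by edgeR (median 0.09). DESeq2 also called 0 lower. Without Trp53inp1 and Trp53inp2, which bind ATG8 proteins and are not DNA-binding factors, 3 of 9 were higher (33.3%, against 32.6% of all tested genes), a count added after the values were seen. On the lower side 1 of the 11, Tfe3, had an unadjusted p under 0.05 (log2 fold change -0.11, edgeR adjusted p 0.0672), and 1 gene was called lower with library totals alone as the scaling. Foxo1, a forkhead factor, rose from 1.04 ± 0.0929 to 2.53 ± 0.148 FPKM (log2 fold change 1.27 with SE 0.10, adjusted p 1.38e-09 by edgeR), and Atf4, the factor of the integrated stress response, from 127 ± 1.33 to 216 ± 5.00 FPKM (log2 fold change 0.75 with SE 0.04, adjusted p 2.78e-11 by edgeR). Trp53inp1 and Trp53inp2 rose, with log2 fold changes of 1.28 and 1.03. Tfeb rose (log2 fold change 0.19, adjusted p 0.017 by edgeR), and Hif1a had 73.6 ± 1.22 FPKM in control and 74.7 ± 7.57 FPKM in induced cells, with an interval of -0.11 to 0.13.

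Of other regulators of nucleation, 8 of 12 tested were higher (66.7%) and 2 lower (16.7%), with a median of 0.22. Bcl2l1 (Bcl-xL), which binds beclin 1, rose from 15.8 ± 0.291 to 23.99 ± 1.06 FPKM (log2 fold change 0.59 with SE 0.05, adjusted p 1.70e-08 by edgeR), and Tmem41b, which works beside Vmp1 in the endoplasmic reticulum, rose from 6.58 ± 0.306 to 9.31 ± 0.343 FPKM (log2 fold change 0.49 with SE 0.06, adjusted p 5.92e-07 by edgeR), against the fall of Vmp1. Dapk1, a kinase that acts on beclin 1, fell from 23.4 ± 0.476 to 9.44 ± 0.219 FPKM (log2 fold change -1.32 with SE 0.05, adjusted p 5.44e-14 by edgeR), and Mtmr14, a phosphatase that removes PI3P, from 10.03 ± 0.589 to 5.15 ± 0.290 FPKM (log2 fold change -0.97 with SE 0.08, adjusted p 4.81e-09 by edgeR).

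Of other cargo receptors, 9 of 15 tested were higher (60%) and 1 lower (6.67%), with a median of 0.28. Sec62 and Retreg1 (FAM134B), receptors for endoplasmic reticulum, rose, with log2 fold changes of 0.85 and 0.73, and so did Tollip, a ubiquitin-binding adaptor (log2 fold change 0.84, edgeR adjusted p 1.11e-10). Phb2, the one called lower, is a protein of the inner mitochondrial membrane and went from 55.8 ± 2.37 to 33.2 ± 2.85 FPKM (log2 fold change -0.76 with SE 0.06, adjusted p 2.15e-09 by edgeR).

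Of the tethering and SNARE factors of fusion, 11 of 15 were higher (73.3%) and 0 lower by edgeR (median 0.33); the lowest estimate of the 15 was 0.04 (Vps11), so 0 had an unadjusted p under 0.05 on the lower side, and DESeq2 also gave 0 lower. Rab7, the GTPase of late endosomes and lysosomes, rose from 109 ± 3.75 to 161 ± 1.02 FPKM (log2 fold change 0.55 with SE 0.04, adjusted p 3.36e-09 by edgeR). The SNARE proteins Stx7 and Ykt6 rose, with log2 fold changes of 0.74 and 0.55, as did Vps39, a subunit of the HOPS tether (log2 fold change 0.71, edgeR adjusted p 5.16e-09).

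**Figure D5:**
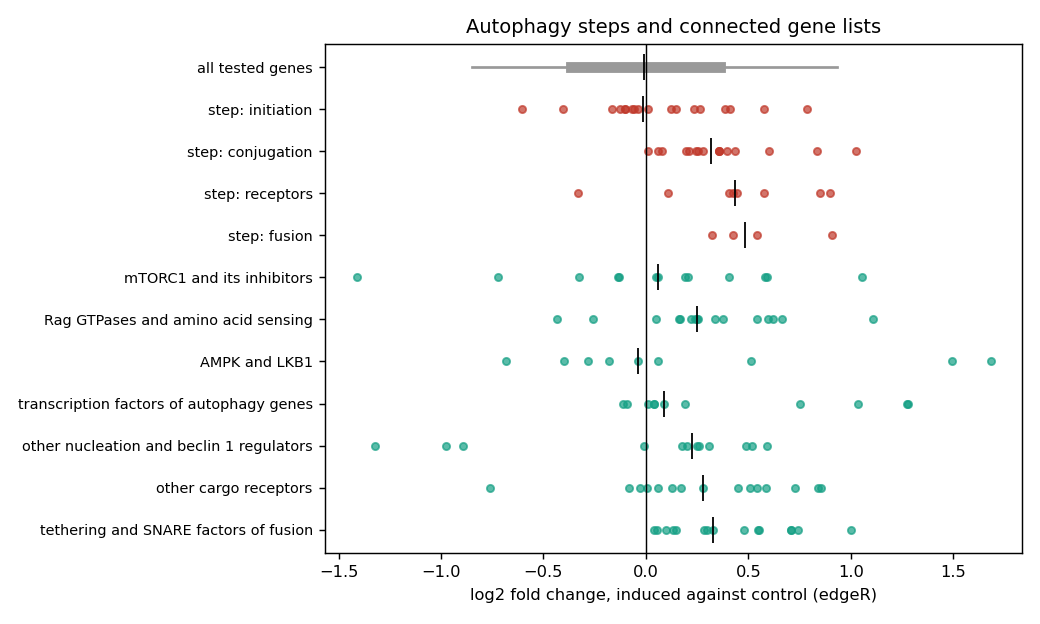
Log2 fold change, induced against control (x axis), of the members by step (red points), of the tested genes of 7 connected lists (green points) and of all 14246 tested genes (grey, 10th to 90th percentile as a thin bar and quartiles as a thick bar); black ticks are medians. The medians of the 4 steps run from -0.01 in initiation to 0.48 in fusion, with all tested genes at -0.01.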

How the data were processed

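RNA was sequenced from 3 control and 3 induced libraries (NEBNext Ultra kit). The authors deposited raw counts per gene and FPKM in 1 table; the submitters' processing notes name HISAT2 2.0.5, featureCounts 1.5.0-p3, DESeq2 1.16.1 and mm10. The strand setting is not given in the sources used here, so overlapping and antisense genes cannot be told apart. Few reads for an overlapping gene do not show that reads from the shared exons were kept for the member. The deposited FPKM divide counts by gene length and by a depth of 0.98 to 1.03 times the library total. Coordinates are those of the table; 98.3% of its genes found in GENCODE M21 (GRCm38) have the same start and end, including 44 of the 46 members. Columns of the authors' own fold changes and p-values, and the Gene Ontology tables, were not used.

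Counts were tested in R 4.3.3 with edgeR 4.0.16: filterByExpr (minimum count 10, minimum total 15), TMM scaling and a two-sided quasi-likelihood test of induced against control, with Benjamini-Hochberg adjustment over all 14246 tested genes and a threshold of 0.05. Each standard error was the absolute log2 fold change divided by the root of F, and intervals of fold changes are 95% intervals not adjusted for the number of genes. Levels are the deposited FPKM. Named for values in every library were members at least 1.5-fold changed, the ATG8 genes, the soluble receptors and the highest member of each step, and from each connected list up to 4 called genes with the smallest p. A few others are named where a count turns on them and were chosen after their values were seen (Tfeb, Hif1a, Tfe3, Vps11, Rragb, Depdc5, Nprl2, Cd68, Lyz2, Csf1r, Cd14, Upk3b, Tbx18, Wt1, Tcf21, Tnnt2, Myl7, Tnni3). Members and lists were chosen with earlier results of these data known, and no set test was run. Copies are annotated transcripts of other loci with at least 95% identity over 200 bases and 50% of their length (blastn 2.17.0).

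The same results were computed with DESeq2 1.42.0, with size factors by median ratios, with totals as the only scaling, without and with a harsher filter on low counts, with limma 3.58.1 on log2 FPKM after adding 1 or 0.1, with the replicate number as a block, at a threshold of 0.01, and leaving 1 library out at a time. The background of genes with at least 118.5 reads on average was chosen after seeing the data. Total counts were 19041133 to 19823369 per library, at which 0 reads allow up to 0.151 to 0.158 CPM (3 counts); such limits cover counting error only. Any 2 libraries of a group were further apart than read sampling gives (chi-square of 2.56 to 8.91 for each degree of freedom). Pairs with induced replicate 2 gave 8.91 and 8.04, the pair of induced replicates 1 and 3 gave 4.68, and control pairs gave 2.56 to 3.40. Each library was kept as 1 sample.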

Additional observations from a re-analysis of the deposited data

How the results depend on the processing

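Over 1110 values of 74 named genes under 15 alternatives each, 1080 stayed on their side of the threshold, 24 fell short of it and 6 newly passed it. No called value changed sign, while the estimates of Ambra1, Atg13, Atg16l2 and Atg2a, none of them called, took both signs. For the 46 members, 27 to 31 were called higher and 3 to 5 lower over all alternatives run, and 6 to 10 changed at least 1.5-fold. The replicate numbers did not pair the libraries: correlations of same-numbered deviations were -0.05, -0.04 and 0.04. With the replicate block 33 members were called, 29 higher and 4 lower.

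With library totals alone, which moved the median of all genes from -0.01 to -0.04 and the higher share of calls from 50.3% to 46.5%, the median log2 fold change was 0.23 for the members, -0.052 for initiation, 0.023 for the mTORC1 list, 0.053 for the transcription factors (1 called lower) and 0.24 for other cargo receptors. By DESeq2 the lower calls were 1 in the Rag list and 2 in the AMPK list, and at 0.01 there was 1 in the Rag list. With limma on log2(FPKM + 1), the count of genes changed at least 1.5-fold was 2740, against 4400. The cause was not tested.

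Leaving out 1 library gave medians of -0.024 to 0.025 for initiation (0.025 without induced replicate 2), 0.024 to 0.11 for mTORC1 (0.024 without control replicate 2, 0.11 without control replicate 3), 0.24 to 0.34 for other cargo receptors and 0.31 to 0.37 for tethering factors. Lower calls in the Rag list were 1 to 2, with 1 without control replicate 2 or induced replicate 1. The change in the log2 ratio of Wipi1 to Wipi2 ran from -0.11 to 0.027 (0.027 without control replicate 1), and that of Atg4d to Atg4b from -0.071 to 0.070 (0.038 without control replicate 3, 0.070 without induced replicate 3). With 3 libraries a group, the exact permutation test of a ratio or share cannot reach 0.05, and Atg10, at 98 to 137 reads, is the member least well measured.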
